A study of Canis lupus familiaris with 4 samples.

Results

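*DCT*, *TYR* and *MC1R*, the melanocyte pigment genes paired with a target of a custom canine NanoString panel, were examined in skin biopsies of 4 dogs. They are 3 of the 160 targets of the panel. They were chosen from the deposited counts with earlier results known, because *DCT* and *MC1R* stood high in the erythema multiforme (EM) biopsy, and *TYR* was added as a gene of the same cell type. The difference between EM and the other dogs is therefore given as a description, with no test for these genes. Targets were identified by RefSeq transcript, NM_001284466.1 for *DCT*, NM_001002941.1 for *TYR* and NM_001014282.2 for *MC1R*.

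Melanocytes are the pigment cells of the basal epidermis and hair follicle, and they pass melanin to the surrounding keratinocytes. Tyrosinase, encoded by *TYR*, is the rate-limiting enzyme of melanin synthesis, and dopachrome tautomerase, encoded by *DCT*, acts downstream of it in the branch that makes black and brown eumelanin. *MC1R* encodes the melanocortin receptor of the melanocyte surface, whose signalling favours eumelanin. EM belongs to the cytotoxic interface dermatitides, in which T cells attack the basal keratinocytes among which melanocytes sit.

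The study set cytotoxic interface dermatitis against inflammatory conditions that spare the basal keratinocytes. The EM biopsy (EM case 4 by its label) came from a 5-year-old spayed female Boxer. The study lists this Boxer as EM case 2 and gives case 4 to another dog. The comparatives were 1 dog labelled as a control with CPV, cell poor vasculitis (CPV case 1, a 4-year-old spayed female Pomeranian), and 2 labelled as controls with pyoderma, a bacterial skin infection (Pyoderma case 1, a 7-year-old neutered male Golden Retriever, and Pyoderma case 2, a 9-year-old neutered male German Shepherd). All were archival biopsies taken in routine care, and the labels give no treatment, body site or coat colour. Healthy skin was not analysed here. Every dog was of another breed, so disease, breed and dog cannot be told apart, and whether body site or coat colour plays a part was not tested. The pyoderma dogs were both male and older than the female EM and CPV dogs, so pyoderma, sex and age cannot be told apart either.

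The summed target count of a biopsy lay between 517282 and 808877. Normalized counts are the deposited counts scaled by the geometric mean of 3 housekeeping genes (*B2M*, *RPL13A* and *HPRT1*), and their 95% Poisson limits cover counting error only. For each biopsy a background was set at 2 SD above the mean of its 8 negative control probes, and between 137 and 147 targets exceeded it. The EM value has no replicate, and with 4 dogs of which 1 has EM the smallest p of an exact permutation test is 0.25.

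The 3 pigment genes were each highest in the EM biopsy, but by different amounts. *DCT* in EM was 5.87 times the mean of the comparatives, *MC1R* 3.18 times and *TYR* 1.74 times. Over the whole panel, 34 of the 160 targets (21.2%) were highest in EM, and the genes were chosen with this contrast known, so their count of 3 of 3 carries no weight of its own. In RNA from whole sections, more melanocytes and more RNA per melanocyte cannot be told apart.

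*DCT* was counted 314 times in the EM biopsy, 49 times in CPV, 31 times in Pyoderma case 1 and 42 times in Pyoderma case 2. These counts gave 258 normalized counts in EM (95% Poisson limits 230 to 288), 54.3 in CPV (40.2 to 71.8), 34.0 in Pyoderma case 1 (23.1 to 48.2) and 43.4 in Pyoderma case 2 (31.3 to 58.7). The EM biopsy thus stood alone, while the intervals of the comparatives overlapped and their highest and lowest values differed by 1.60-fold. The mean of the comparatives was 43.9 ± 10.2 (SD, n = 3), and EM lay 4.75-fold above the highest of them. On the log2 scale with a pseudocount of 1, EM minus the mean of the comparatives was 2.55, against an SD of 0.33 among the comparatives.

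*MC1R* was counted 102 times in the EM biopsy, 28 times in CPV, 23 times in Pyoderma case 1 and 22 times in Pyoderma case 2. Normalized counts were 83.8 in EM (68.3 to 102), 31.0 in CPV (20.6 to 44.9), 25.2 in Pyoderma case 1 (16.0 to 37.8) and 22.7 in Pyoderma case 2 (14.2 to 34.4). The receptor gene showed the same split as *DCT*, with EM apart from 3 comparatives whose intervals overlapped. The comparatives stood at only 1.38 to 1.84 times their background, so their levels were near the limit of detection. Their mean was 26.3 ± 4.26 (SD, n = 3), and the log2 difference of EM was 1.64, against an SD of 0.22.

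*TYR* was counted 81 times in the EM biopsy, 43 times in CPV, 45 times in Pyoderma case 1 and 17 times in Pyoderma case 2. Normalized counts were 66.5 in EM (52.8 to 82.7), 47.7 in CPV (34.5 to 64.2), 49.3 in Pyoderma case 1 (36.0 to 66.0) and 17.6 in Pyoderma case 2 (10.2 to 28.1). The EM interval overlapped those of CPV and Pyoderma case 1, so the order of these 3 biopsies was not resolved at this depth, and the biopsy that stood apart was Pyoderma case 2, at the low end. Its count of 17 was 1.07 times its background of 15.9 counts, and one of its negative control probes was counted 16 times. The mean of the comparatives was 38.2 ± 17.9 (SD, n = 3), and the log2 difference of EM was 0.92, against an SD of 0.82. That difference was 0.45 without Pyoderma case 2.

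**Figure D1:**
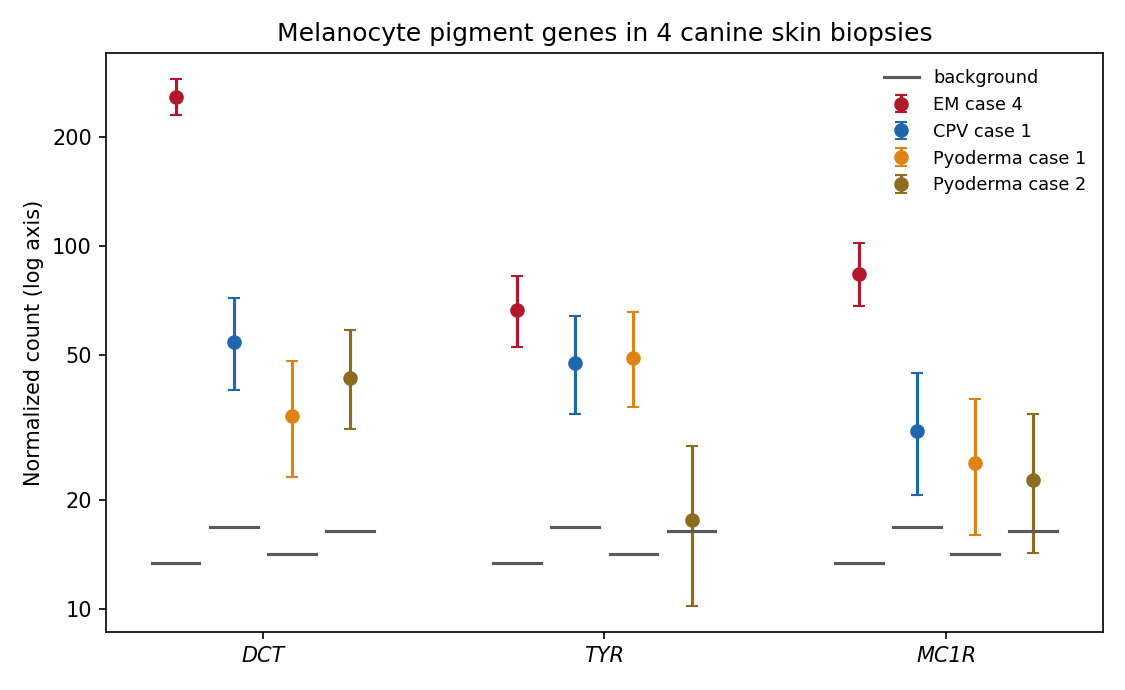
Normalized counts (log axis) of *DCT*, *TYR* and *MC1R* in each of the 4 biopsies, with 95% Poisson limits as bars and the scaled background of each biopsy as a short grey line. The EM biopsy, at 258 for *DCT* and 83.8 for *MC1R*, lies clear of the other 3, whereas for *TYR* its interval overlaps those of CPV and Pyoderma case 1 and Pyoderma case 2 lies at background.

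The choice of scaling moved these differences but not the place of EM. Under 9 scalings the EM biopsy was highest for each of the 3 genes. Its interval was separate from those of all comparatives under 9 of the 9 scalings for *DCT* and *MC1R* and under 2 of them for *TYR*. The ratio of EM to the highest comparative ran from 3.59 to 6.54 for *DCT*, from 2.04 to 4.00 for *MC1R* and from 1.06 to 1.80 for *TYR*. The median log2 difference of all targets was −0.19 with housekeeping scaling and ran from −0.36 to 0.27 over the scalings. Relative to that median, the log2 difference was 2.74 for *DCT*, 1.83 for *MC1R* and 1.11 for *TYR*. Among the 160 targets ordered by the log2 difference, *DCT* ranked 2, *MC1R* ranked 5 and *TYR* ranked 25.

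**Figure D2:**
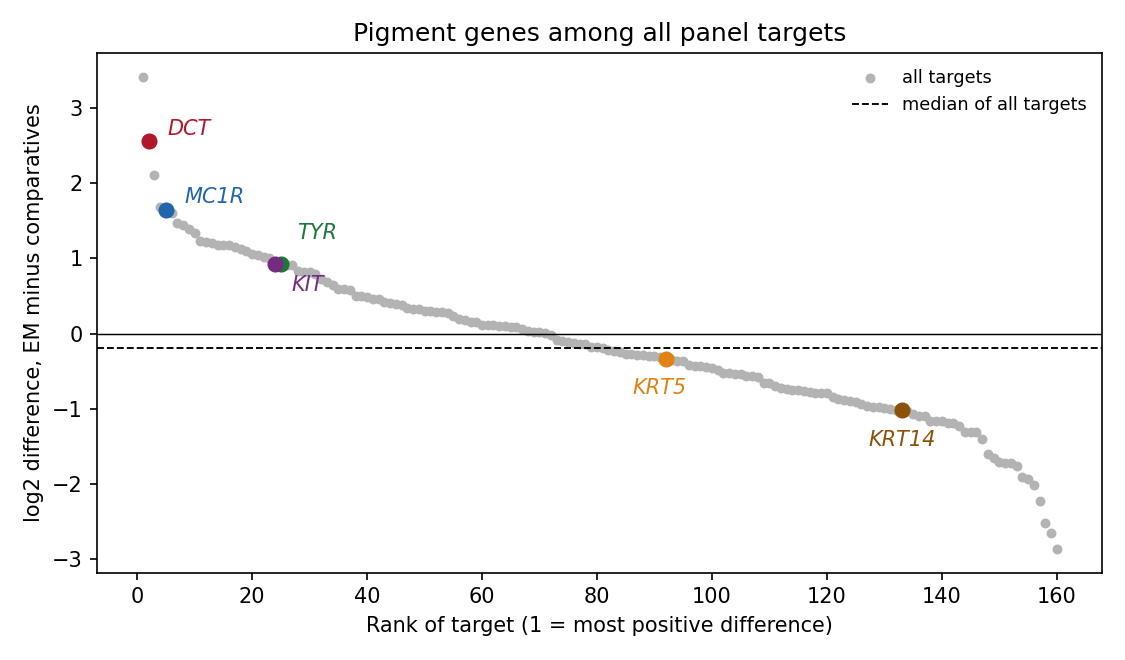
The log2 difference between the EM biopsy and the mean of the 3 comparatives for each of the 160 targets (grey points), ordered from most positive to most negative, with the median of all targets dashed. *DCT* (2.55) and *MC1R* (1.64) lie at ranks 2 and 5, *TYR* (0.92) lies beside *KIT* (0.92) at ranks 25 and 24, and the basal keratins *KRT5* (−0.34) and *KRT14* (−1.02) lie below the median.

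In the comparison of EM with the comparatives over the whole panel by edgeR's quasi-likelihood test, 0 of 160 targets (0%) passed an adjusted p of 0.05, with 6 at an unadjusted p under that threshold, and DESeq2 gave 0 adjusted and 11 unadjusted calls. Leaving out the CPV biopsy moved the edgeR count to 2 targets. The CPV biopsy was then compared with the 2 pyoderma biopsies, a contrast on which the choice of the genes did not turn. The same edgeR test called 2 of 160 targets (1.25%) and 0 of the 3 pigment genes. The log2 fold change of CPV against pyoderma was 0.49 for *DCT* (standard error 0.98), 0.37 for *MC1R* (standard error 1.00) and 0.51 for *TYR* (standard error 0.97), each with an adjusted p of 0.971 from edgeR's quasi-likelihood test. The fit had 1 residual degree of freedom, so the test rests mostly on variance that edgeR shares over all targets. These p-values do not show that the levels were alike.

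Ratios among the genes within a biopsy do not depend on scaling. Probes differ in efficiency, so a ratio was compared between biopsies and was not read as a ratio of molecules. The summed count of the 3 genes was 497 in EM, 120 in CPV, 99 in Pyoderma case 1 and 81 in Pyoderma case 2, or 408, 133, 108 and 83.7 normalized counts. In the deposited counts *DCT* took a larger part of this sum in EM than in the comparatives, and *TYR* a smaller one, and for Pyoderma case 2 neither difference was resolved.

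*DCT* made up 63.2% of the summed count in EM (exact binomial 95% interval 58.8 to 67.4), 40.8% in CPV (32.0 to 50.2), 31.3% in Pyoderma case 1 (22.4 to 41.4) and 51.9% in Pyoderma case 2 (40.5 to 63.1). The EM interval was separate from those of CPV and Pyoderma case 1 and overlapped that of Pyoderma case 2. The share of *TYR* was 16.3% in EM (13.2 to 19.8), 35.8% in CPV (27.3 to 45.1), 45.5% in Pyoderma case 1 (35.4 to 55.8) and 21.0% in Pyoderma case 2 (12.7 to 31.5). The share of *TYR* thus split the biopsies into EM and Pyoderma case 2 at the low end and CPV and Pyoderma case 1 at the high end, although the intervals of CPV and Pyoderma case 2 overlapped. *MC1R* kept the most even share, with 20.5% in EM (17.1 to 24.3), 23.3% in CPV (16.1 to 31.9), 23.2% in Pyoderma case 1 (15.3 to 32.8) and 27.2% in Pyoderma case 2 (17.9 to 38.2), and its 4 intervals overlapped. After the mean of the negative control probes was subtracted, the share of *DCT* was 65.0% in EM and 64.6% in Pyoderma case 2, and that of *TYR* was 15.3% and 12.5%. The order of EM and Pyoderma case 2 thus turned for *TYR*, and their shares of *DCT* came close to each other, while in CPV and Pyoderma case 1 the share of *DCT* stayed lower, at 42.5% and 30.6%, and that of *TYR* higher, at 36.4% and 49.8%.

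**Figure D3:**
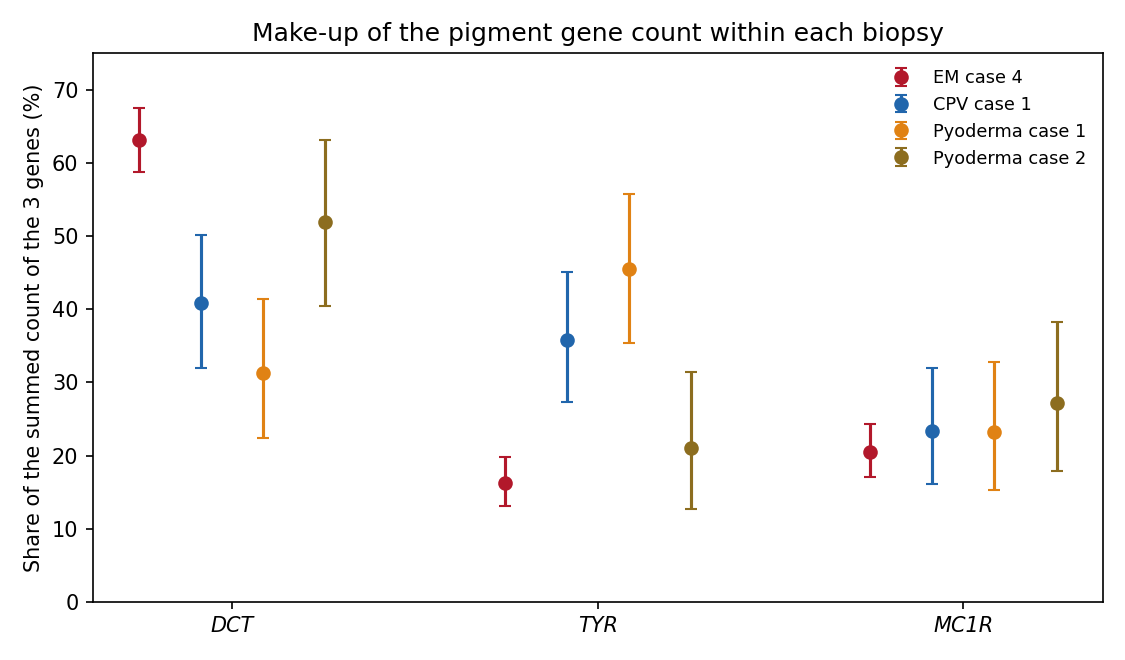
Share of each gene in the summed count of *DCT*, *TYR* and *MC1R* within a biopsy, in percent, with exact binomial 95% intervals as bars. *DCT* takes 63.2% in EM and from 31.3% to 51.9% in the comparatives, *TYR* takes 16.3% in EM and from 21.0% to 45.5% in the comparatives, and the intervals of *MC1R* overlap in all 4 biopsies.

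The ratio of *DCT* to *TYR* counts was 3.88 in EM (exact 95% interval 3.03 to 5.01), 1.14 in CPV (0.74 to 1.76), 0.69 in Pyoderma case 1 (0.42 to 1.11) and 2.47 in Pyoderma case 2 (1.38 to 4.63). The high ratio was thus shared by EM and Pyoderma case 2, whose intervals overlapped, and in Pyoderma case 2 it went with a *TYR* count at background. The interval of Pyoderma case 2 also overlapped that of CPV. After the mean of the negative control probes was subtracted, the ratio was 4.26 in EM and 5.17 in Pyoderma case 2, so the order of these 2 biopsies turned, while CPV (1.17) and Pyoderma case 1 (0.61) stayed below them. The ratio of *DCT* to *MC1R* was 3.08 in EM (2.45 to 3.89), 1.75 in CPV (1.08 to 2.89), 1.35 in Pyoderma case 1 (0.76 to 2.42) and 1.91 in Pyoderma case 2 (1.11 to 3.36). It was highest in EM, with an interval separate from that of Pyoderma case 1 alone, and it stayed highest after subtraction, at 3.29 against at most 2.82. The ratio of *MC1R* to *TYR* was 1.26 in EM (0.93 to 1.71) and lay inside the range of the comparatives, with 0.65 in CPV (0.39 to 1.07), 0.51 in Pyoderma case 1 (0.30 to 0.86) and 1.29 in Pyoderma case 2 (0.66 to 2.60).

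The 2 pyoderma biopsies differed from each other in *TYR* more than in the other genes. *TYR* was 2.81-fold higher in Pyoderma case 1 than in Pyoderma case 2, and their intervals were separate. *DCT* ran the other way, with 34.0 normalized counts in case 1 and 43.4 in case 2, and *MC1R* stood at 25.2 and 22.7, with overlapping intervals for both genes. The ratio of *DCT* to *TYR* therefore differed between these 2 biopsies of the same diagnosis. This rests on Pyoderma case 2, whose *TYR* count of 17 was 1.07 times its background.

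The pigment genes were then set against *KRT5* and *KRT14*, which encode the paired keratins of the basal keratinocytes, the cells next to the melanocytes. *KRT5* had 46366 normalized counts in EM, 100588 in CPV, 79778 in Pyoderma case 1 and 25038 in Pyoderma case 2. *KRT14* had 17870, 86770, 42257 and 13027 normalized counts in the same order. Both keratins were highest in CPV and lowest in Pyoderma case 2, and EM had the lowest ratio of *KRT14* to *KRT5* counts, 0.39 against 0.52 to 0.86 in the comparatives. The keratins differed between the comparatives by 4.02-fold for *KRT5* and 6.66-fold for *KRT14*, more than any of the pigment genes did.

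Per 10000 counts of *KRT5*, *DCT* had 55.6 counts in EM (49.6 to 62.1), 5.40 in CPV (3.99 to 7.14), 4.26 in Pyoderma case 1 (2.89 to 6.05) and 17.3 in Pyoderma case 2 (12.5 to 23.4). EM was again highest, at 3.21 times the next biopsy, and Pyoderma case 2 now stood above the other comparatives. *MC1R* per 10000 counts of *KRT5* was 18.1 in EM (14.7 to 21.9), 3.09 in CPV (2.05 to 4.46), 3.16 in Pyoderma case 1 (2.003 to 4.74) and 9.08 in Pyoderma case 2 (5.69 to 13.7), the same order of EM over Pyoderma case 2 over the rest. *TYR* per 10000 counts of *KRT5* was 14.3 in EM (11.4 to 17.8), 4.74 in CPV (3.43 to 6.38), 6.18 in Pyoderma case 1 (4.51 to 8.27) and 7.02 in Pyoderma case 2 (4.09 to 11.2). For *TYR* the comparatives lay close together with overlapping intervals, and EM lay 2.04-fold above the highest of them. The *TYR* value of Pyoderma case 2 rests on 17 counts, at 1.07 times background. Subtraction of the negative control mean left 6 *TYR* counts there, against 35.6 in CPV and 36.25 in Pyoderma case 1, so the order of the comparatives is not resolved.

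Against *KRT14* the distances were wider. *DCT* per 10000 counts of *KRT14* was 144 in EM, 6.26 in CPV, 8.04 in Pyoderma case 1 and 33.3 in Pyoderma case 2, *MC1R* was 46.9, 3.58, 5.96 and 17.5, and *TYR* was 37.2, 5.49, 11.7 and 13.5. The EM interval was separate from those of all comparatives for each gene, with EM above the next biopsy by 4.33-fold for *DCT*, 2.69-fold for *MC1R* and 2.76-fold for *TYR*. For *TYR* that next biopsy was Pyoderma case 2, with its count at background. All 3 genes were highest in EM in their ratio to *KRT5*, as were 26 of 158 targets (16.5%), and in their ratio to *KRT14*, as were 49 of 158 (31%).

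**Figure D4:**
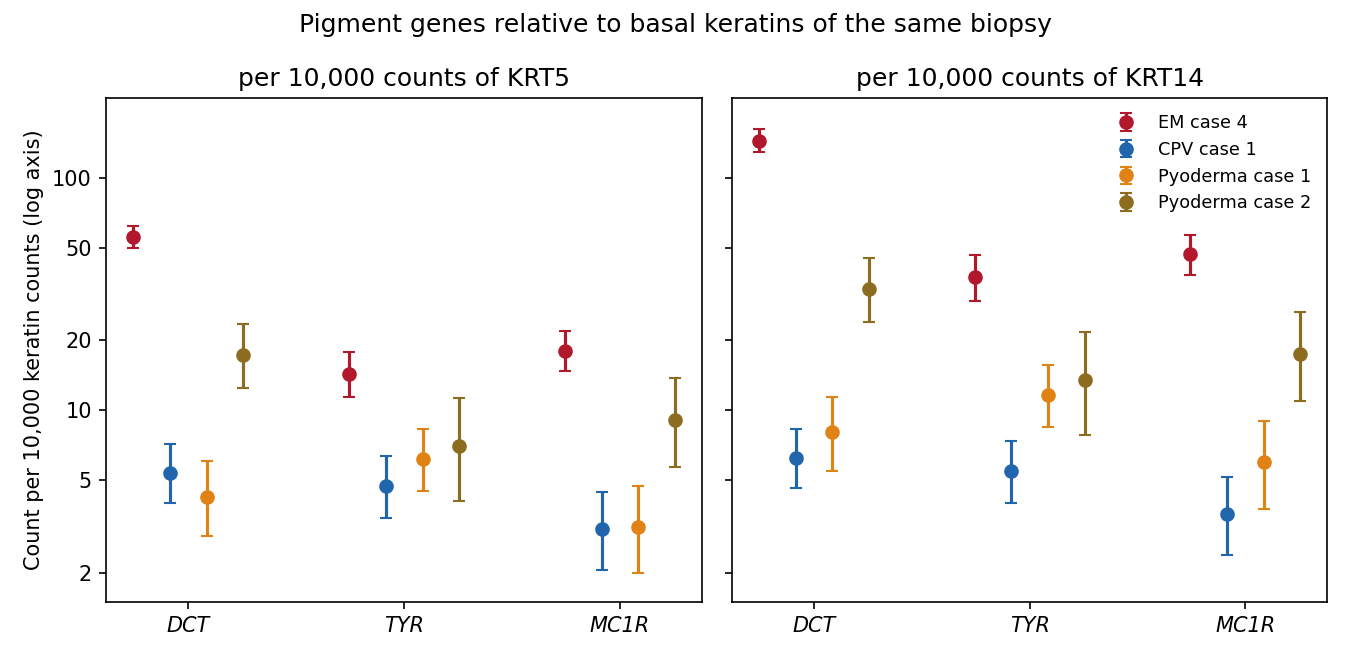
Counts of *DCT*, *TYR* and *MC1R* per 10000 counts of *KRT5* (left) or *KRT14* (right) in the same biopsy, on a log axis, with exact binomial 95% intervals as bars. EM lies highest in all 6 sets, Pyoderma case 2 comes next in each, and for *TYR* per *KRT5* the comparatives lie between 4.74 and 7.02. For *TYR* the place of Pyoderma case 2 rests on a count at background.

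Dividing by *KRT5* did not act alike on the 3 genes. Between the highest and the lowest comparative, *DCT* differed by 1.60-fold as a normalized count and by 4.07-fold per *KRT5* count, and *MC1R* by 1.37-fold and 2.94-fold. *TYR* went the other way, from 2.81-fold as a normalized count to 1.48-fold per *KRT5* count. Per *KRT14* count the narrowing of *TYR* was slight, to 2.45-fold, while *DCT* differed by 5.32-fold and *MC1R* by 4.88-fold. Among the comparatives *TYR* and *MC1R* were lowest where *KRT5* was lowest, in Pyoderma case 2, although the *MC1R* intervals overlapped, and *DCT* was lowest in Pyoderma case 1. For *TYR* this rests on Pyoderma case 2, with its count at background.

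Of a list of 15 melanocyte genes, 4 were paired with a target, the 3 pigment genes and *KIT*, which encodes the stem cell factor receptor of melanocytes and mast cells. *KIT* had 466 normalized counts in EM, 152 in CPV, 419 in Pyoderma case 1 and 232 in Pyoderma case 2, so EM was 1.11 times Pyoderma case 1. *MS4A2*, which encodes the beta chain of the IgE receptor and marks mast cells, had 204 normalized counts in EM, 48.8 in CPV, 615 in Pyoderma case 1 and 228 in Pyoderma case 2. High *KIT* in Pyoderma case 1 went with the highest *MS4A2* value, whereas *MS4A2* in EM was near that of Pyoderma case 2. Per count of *MS4A2*, *KIT* stood at 0.68 for Pyoderma case 1, 1.02 for Pyoderma case 2, 2.28 for EM and 3.11 for CPV. This ratio was thus highest in CPV, where *DCT* had 54.3 normalized counts against 258 in EM. The ratio of *KIT* to *DCT* counts was 1.81 in EM, 2.80 in CPV, 12.3 in Pyoderma case 1 and 5.36 in Pyoderma case 2, and the part of mast cells in the *KIT* counts was not tested.

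Of 14 genes for signals that act on pigment cells, such as *POMC*, *KITLG* and *ASIP*, 0 were paired with a target, and the same held for 5 Schwann cell and nerve markers and 3 endothelial markers. As 88 of the 160 targets could not be named, an unpaired gene may still be on the panel. The study reports *CRHR2*, from the signal list, and *PECAM1*, an endothelial marker, in samples run on its custom panel. Of the keratinocyte lists, 2 of 6 basal genes (*KRT5* and *KRT14*) and 2 of 7 suprabasal genes (*KRT1* and *KLK7*) were paired. *KRT1* had 41485 normalized counts in EM, 92244 in CPV, 79692 in Pyoderma case 1 and 38013 in Pyoderma case 2, and *KLK7*, an epidermal protease gene, had 5544, 3252, 9312 and 3143. The dermal collagen gene *COL1A1*, 1 of 5 fibroblast markers paired, had 69257 normalized counts in EM and between 4310 and 138520 in the comparatives. *CD163*, 1 of 5 macrophage markers paired, had 571 in EM and between 597 and 1375 in the comparatives. Of 9 T cell and cytotoxic markers 2 were paired, *KLRD1* with 46.8 in EM and between 55.9 and 97.6 in the comparatives, and *IFNG* with 32.9 in EM and between 70.1 and 87.8. The scaling gene *RPL13A* was also highest in EM, with 16440 normalized counts against at most 12339. The part of these tissue differences in the pigment gene values was not tested.

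The likeness of profiles was measured as the root mean square difference between log2 normalized counts over the 4 biopsies, each gene centred on its own mean, among 58 named targets with at least 50 counts in a biopsy. The nearest of all to *DCT* was *MC1R*, at 0.43, and the nearest to *MC1R* was *DCT*, while *TYR* ranked 9 from *DCT* and 6 from *MC1R*. *DCT* and *MC1R* were chosen for standing high in EM in these same values, so their nearness carries no weight of its own. From *TYR*, *MC1R* ranked 4 (0.57) and *DCT* ranked 30 (0.95). Beyond the pigment genes, the 5 nearest to *DCT* were *CCL5* (0.75), *CXCL10* (0.82), *ADRB1* (0.89), *PPARG* (0.91) and *CYP1B1* (0.92). *CCL5* encodes a chemokine for T cells and *CXCL10* one induced by interferon. For *MC1R* they were *CCL5* (0.46), *CXCL10* (0.50), *RPL13A* (0.54), *ADRB1* (0.55) and *EDA* (0.57). These lists held *CCL5*, *CXCL10* and *ADRB1*, a beta adrenergic receptor gene, in common, and all 3 were highest in EM. Genes of near profile are bound to tend that way, because *DCT* and *MC1R* were chosen as high in EM. A link between these genes and the pigment genes was not tested. The profile of *ADRB1* is limited by low counts, with 17.7 normalized counts in CPV and 22.7 in Pyoderma case 2, near background.

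Those near to *TYR* were other genes, among them *CX3CL1* (0.43), *IL10* (0.52), *KRT5* (0.59) and *CCL27* (0.60). *CX3CL1*, which encodes fractalkine, had 224 normalized counts in EM, 254 in CPV, 176 in Pyoderma case 1 and 127 in Pyoderma case 2. It was lowest in Pyoderma case 2, as *TYR* was, and highest in CPV, where *TYR* was not. *CCL27* had 16.6 normalized counts in CPV and 18.6 in Pyoderma case 2, at or near background. With 4 biopsies these are descriptions of likeness in these dogs.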

How the data were processed

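RNA from formalin-fixed, paraffin-embedded skin curls of 4 dogs was hybridized by the authors to a custom NanoString panel. The authors deposited whole counts per probe, not normalized, for 160 targets, 6 positive and 8 negative control probes, and software versions are not given in the sources used here. Groups follow the sample titles. The series' design text describes other dogs, which were not analysed here. Of the targets, 72 were named by RefSeq transcript, versions ignored, from a gene table of the UU_Cfam_GSD_1.0 assembly, used for names only. Of the 4 housekeeping genes the authors name, 3 were paired.

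The members and lists were chosen with earlier results of these data known. The genes named are the pigment genes, *KRT5*, *KRT14*, *KRT1*, the housekeeping genes, paired list genes and, for each pigment gene, the 5 named targets of nearest profile, of which 1 is not reported here. Counts were tested in edgeR 4.0.16 (R 4.3.3) by the quasi-likelihood method over all 160 targets, no filter, Benjamini-Hochberg adjustment at 0.05, in which a lone dog was assumed to vary like the others, with 3 groups for CPV against pyoderma. The fit was run on simulated data to check the direction of planted changes and the number of false calls. The share of changes it can find is not reported here. Alternatives were 8 other scalings, pseudocounts of 0.5 and 10, subtraction of the negative control mean, a filter at 20 counts, DESeq2 1.42.0, *KRT1* as denominator and each comparative left out. Python 3.11.15, scipy 1.17.1 and pandas 2.3.3 were used for the rest.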

Additional observations from a re-analysis of the deposited data

How the results depend on the processing

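EM minus the mean of the comparatives kept its sign under every alternative run, 102 values in all. This covers the log2 differences of the 3 pigment genes, their ratios to each other and their ratios to *KRT5* and *KRT14*. Values with *KRT1* as denominator are counted under both keratins. The sign does not place EM above every comparative. After subtraction, the ratio of *DCT* to *TYR* was 4.26 in EM against 5.17 in Pyoderma case 2, and that of *MC1R* to *TYR* was 1.29 against 1.83. Of the 102 values, 10 moved by more than the SD of the comparatives. *DCT* (2.55) was 3.01 when scaled by the panel total and 2.94 on unscaled counts. *MC1R* (1.64) was 2.10 and 2.03 under the same settings, 1.90 with edgeR's TMM, 1.96 with *RPL13A* left out of the scaling, 1.37 at a pseudocount of 10 and 2.18 once background was subtracted. Another scaling shifts every gene of a biopsy alike, which gives the cause for the values under other scalings. The log2 ratio of *TYR* to *KRT5* (1.25) was 1.72 once background was subtracted and 1.57 with *KRT1* as denominator. Subtraction took *TYR* from 81 to 71.5 counts in EM and from 17 to 6 in Pyoderma case 2. The log2 difference of *KRT1* was −0.66, against −0.34 for *KRT5*. The part of each in the moved ratios was not tested. Without Pyoderma case 2 the log2 difference of *TYR* was 0.45 in place of 0.92.

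The comparison of EM with the comparatives called 0 targets, and from 0 to 2 with 1 comparative left out. CPV against pyoderma called 2 targets, NM_001002987.2 and XM_003639053.4, named after their values were seen. It called 0 when scaled by the panel total, TMM, the median of ratios or the housekeeping genes other than *B2M*, 1 on unscaled counts and 6 with *RPL13A* left out of the scaling. No pigment gene was among the targets called for CPV against pyoderma under the alternatives run. Leaving out a pyoderma biopsy leaves no residual degrees of freedom there, so that fit was left out. No paired analysis was possible because a single dog represents each of EM and CPV. Counts near background limit *MC1R* in the comparatives and *TYR* in Pyoderma case 2.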
